A study of Rattus norvegicus with 16 samples.

Results

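The genes of GABA and glycine signalling were followed as 28 members, picked by symbol from the gene count tables of both sexes, and all 28 matched 1 of the 32754 identifiers listed there. They make, store, move and sense the inhibitory transmitters of the brainstem. The 16 libraries came from rat brain at 8 months of age, and the series title places the tissue at the nucleus ambiguus, a column of medullary motor neurons that serve the larynx and pharynx. There were 4 libraries each from male Pink1-/-, male WT, female Pink1-/- and female WT rats. Pink1 encodes a mitochondrial kinase, and the Pink1-/- rat is used as a model of Parkinson disease. No treatment is labelled, and neither the strain nor the exact dissection is given in the sources used here. Libraries are called by the animal number that ends each title.

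Total counts were 10959412 to 13618637 in male Pink1-/-, 11912656 to 13691846 in male WT, 13875621 to 22779651 in female Pink1-/- and 17978121 to 26570195 in female WT libraries. Pink1 itself stood at 1.51 to 2.32 CPM (counts scaled to library size) in male Pink1-/- libraries against 64.7 to 78.3 CPM in male WT, and at 4.68 to 11.6 CPM in female Pink1-/- libraries against 115 to 137 CPM in female WT. Mitochondrial clone loci took 36.5% to 44.0% of the counts in males and 1.77% to 11.9% in females, so sex cannot be told apart from library processing, and each sex is compared on its own. Male Pink1-/- 17 and male WT 23 stood apart: the signal recognition particle RNA Rn7sl1 took 2.10% of the counts in Pink1-/- 17, 0.578% to 0.726% in the other Pink1-/- males, 0.141% in WT 23 and 0.559% to 0.619% in the other WT males. Chat, which defines cholinergic neurons, was found in every library at 6.24 to 76.9 CPM. Marker sums of forebrain neurons were 12.2 to 26.0 CPM and of Purkinje cells 8.56 to 26.3 CPM over all 16 libraries; of these lists Ppp1r1b (7.14 to 19.6 CPM) and Calb1 (5.13 to 21.1 CPM), which other neurons express too, had the most, while Emx1, Tbr1 and Pcp2 were at most 0.470 CPM. Summed Hox genes, which mark the caudal hindbrain and spinal cord, were at 0.433 to 2.99 CPM in males and spread over 1.44 to 37.3 CPM in females.

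GABA and glycine are the fast inhibitory transmitters of the medulla, and many neurons there release both. GABA is made from glutamate by the glutamic acid decarboxylases Gad1 and Gad2 and broken down by the transaminase Abat, while glycine enters glycinergic terminals through the transporter Slc6a5. Both are loaded into vesicles by Slc32a1 and act on chloride channels, the GABA-A and glycine receptors, which the scaffold gephyrin (Gphn) holds at synapses. The chloride gradient that makes these currents inhibitory in mature neurons is kept by the cotransporter Slc12a5, and GABA also acts on the G protein-coupled GABA-B receptor, a dimer of Gabbr1 and Gabbr2.

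RefSeq promoters on GRCr8 could be matched to 24 of the 28 members. Those of Gad1, Gad2, Slc32a1 and Slc6a5, the genes that define GABA and glycine terminals, are shown. Each is the 250 bases before the gene start on the plus strand: Gad1 at chr3:75777202-75777451, Gad2 at chr17:89671468-89671717, Slc32a1 at chr3:167686995-167687244 and Slc6a5 at chr1:108781303-108781552. Capitals mark matches, on either strand, to a TATA box (TATAAA), a GC box (GGGCGG) or a cyclic AMP response element (TGACGTCA); no 2 of the marked matches overlap.
Gad1: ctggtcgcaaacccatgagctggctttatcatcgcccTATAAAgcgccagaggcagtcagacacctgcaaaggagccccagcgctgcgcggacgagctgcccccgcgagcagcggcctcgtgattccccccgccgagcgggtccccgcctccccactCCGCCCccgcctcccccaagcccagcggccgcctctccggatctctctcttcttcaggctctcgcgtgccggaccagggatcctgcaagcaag
Gad2: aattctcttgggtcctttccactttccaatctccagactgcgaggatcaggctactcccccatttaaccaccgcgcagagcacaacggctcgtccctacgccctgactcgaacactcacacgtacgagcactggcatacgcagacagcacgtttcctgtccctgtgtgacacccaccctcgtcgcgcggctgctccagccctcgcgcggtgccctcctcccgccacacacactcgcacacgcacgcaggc
Slc32a1: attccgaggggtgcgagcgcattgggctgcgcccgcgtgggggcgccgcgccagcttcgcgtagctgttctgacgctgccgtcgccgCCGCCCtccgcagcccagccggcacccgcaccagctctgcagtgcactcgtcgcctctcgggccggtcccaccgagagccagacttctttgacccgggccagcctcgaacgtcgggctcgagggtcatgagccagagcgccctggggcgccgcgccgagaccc
Slc6a5: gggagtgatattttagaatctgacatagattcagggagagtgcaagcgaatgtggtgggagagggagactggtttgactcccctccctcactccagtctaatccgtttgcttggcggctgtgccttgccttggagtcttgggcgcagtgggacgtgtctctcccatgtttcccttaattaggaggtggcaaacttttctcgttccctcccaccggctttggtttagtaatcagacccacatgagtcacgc
Gad1 held 1 TATA box and 1 GC box, Slc32a1 held 1 GC box, and these letters were not found in the windows of Gad2 and Slc6a5. Among 33469 rat promoters of this length, 12.9% held the TATA box, 30.5% the GC box and 1.59% the cyclic AMP response element. The share of G and C was 68.4% for Gad1, 62% for Gad2, 73.6% for Slc32a1 and 52.4% for Slc6a5, beside a median of 51.2% over all promoters. These are matches of letters and say nothing of which factor binds.

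Levels below are TMM-scaled CPM, with trimmed mean of M-values (TMM) factors taken within a sex. They are not divided by transcript length, for which no value was at hand, so the levels of different genes are not ranked against each other and no receptor subunit can be named as the most abundant. Of the 28 members, 26 had enough counts for a test in males and 27 in females. Gabra6, the alpha subunit known from cerebellar granule cells, was at 0.0395 to 1.41 CPM (1 to 17 counts a library) and was tested in neither sex. Gabrd, a subunit of receptors outside synapses, was at 0.197 to 1.03 CPM (4 to 23 counts) and was tested in females only. The other 26 members had at least 13 counts in each library.

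The synthetic enzymes varied more between libraries than between genotypes. Gad1 had 49.5, 81.5, 64.4 and 76.3 CPM in male Pink1-/- libraries 17, 18, 19 and 25, against 68.5, 85.1, 58.7 and 62.3 CPM in male WT libraries 20, 22, 23 and 24. In females it had 71.1, 145, 68.7 and 138 CPM in Pink1-/- libraries 548, 602, 736 and 983, against 83.5, 179, 119 and 147 CPM in WT libraries 64, 111, 504 and 980. The groups overlapped in both sexes, and in Pink1-/- females libraries 548 and 736 lay far below 602 and 983. Gad2 followed the same split, with 85.8, 208, 95.7 and 199 CPM in female Pink1-/- libraries against 121, 234, 203 and 196 CPM in female WT libraries. Male Gad2 levels were 101, 173, 132 and 179 CPM in Pink1-/- libraries against 145, 195, 144 and 138 CPM in WT libraries, and these groups overlapped too. Abat was more even, at 111 ± 14.0 CPM in male Pink1-/-, 106 ± 10.02 CPM in male WT, 253 ± 14.4 CPM in female Pink1-/- and 254 ± 20.0 CPM in female WT libraries (SD, n = 4 each). The log2 fold changes of Pink1-/- over WT (SE in brackets) were -0.02 (0.15) for Gad1 and -0.09 (0.17) for Gad2 in males, with edgeR adjusted p = 0.958 and 0.764. In females they were -0.32 (0.28) and -0.36 (0.29), both with edgeR adjusted p = 0.993. Leaving out WT 111 gave -0.15 for Gad1 and leaving out Pink1-/- 602 gave -0.52, while Gad2 lay between -0.17 without Pink1-/- 548 and -0.58 without Pink1-/- 602.

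Slc6a5, the transporter that fills glycinergic terminals, had 266, 342, 288 and 211 CPM in male Pink1-/- libraries against 331, 335, 248 and 254 CPM in male WT libraries. In females it had 350, 444, 379 and 497 CPM in Pink1-/- libraries against 405, 573, 294 and 508 CPM in WT libraries. The genotypes overlapped in both sexes, with WT 111 and WT 504 as the highest and lowest females. Its log2 fold change was -0.08 (SE 0.14, edgeR adjusted p = 0.751) in males and -0.09 (SE 0.18, edgeR adjusted p = 0.995) in females. Within a library, the CPM of Slc6a5 over that of Gad1 and Gad2 together averaged 1.35 ± 0.391 in male Pink1-/- and 1.31 ± 0.164 in male WT libraries, and 1.82 ± 0.529 in female Pink1-/- and 1.44 ± 0.437 in female WT libraries (SD, n = 4 each). As lengths are left out, this ratio compares libraries and does not say which transmitter prevails. Over all 16 libraries it ran between 0.827 in male Pink1-/- 25 and 2.31 in female Pink1-/- 736, and the genotypes overlapped in each sex.

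**Figure D1:**
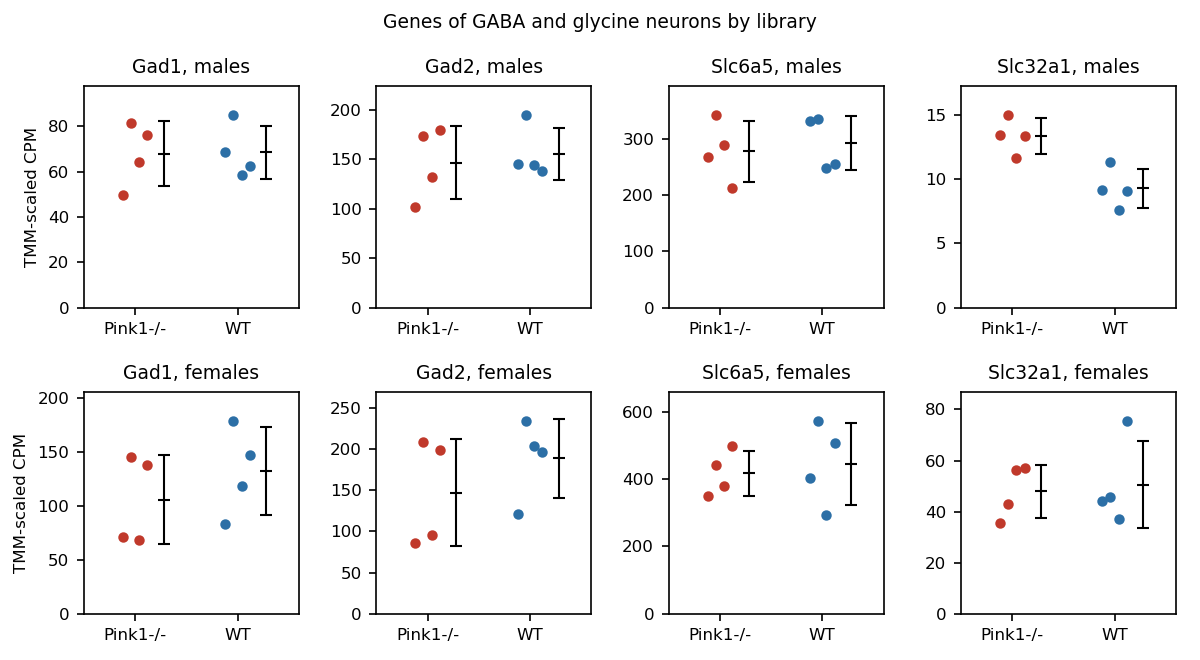
TMM-scaled CPM (y axis, starting at 0) of Gad1, Gad2, Slc6a5 and Slc32a1 in males (upper row) and females (lower row), with Pink1-/- left of WT; points are libraries and bars are the mean and SD of 4. Genotypes overlap in every panel except Slc32a1 in males, where the Pink1-/- libraries (11.6 to 15.03 CPM) lie above WT (7.64 to 11.3 CPM).

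Among receptor genes, Glrb, the beta subunit that ties glycine receptors to gephyrin, had 225 to 254 CPM in female Pink1-/- libraries and 227 to 283 CPM in female WT libraries. Glra1, the alpha subunit of adult glycine receptors, had 107 to 126 CPM in male Pink1-/- and 95.5 to 131 CPM in male WT libraries, and 167 to 179 CPM in female Pink1-/- and 160 to 203 CPM in female WT libraries. Of the other alpha subunits, Glra2 stood at 5.38 to 14.0 CPM and Glra3 at 4.28 to 8.33 CPM over all 16 libraries. Of the GABA-A alpha subunits, Gabra2 lay between 30.3 and 68.9 CPM, Gabra3 between 35.9 and 59.1 CPM, Gabra4 between 8.60 and 17.2 CPM and Gabra5 between 28.02 and 61.3 CPM. Gabrb1 had 21.4 to 31.3 CPM, Gabrb2 34.3 to 56.5 CPM, Gabrg1 28.1 to 52.4 CPM and Gabrg3 3.61 to 7.18 CPM. GABA-A subunits outside these 12 were not analysed here. Summed Glra1 to Glra3 over summed Gabra2 to Gabra6 gave a CPM ratio of 0.925 ± 0.0863 in male Pink1-/- and 0.774 ± 0.116 in male WT libraries, and of 1.42 ± 0.0629 in female Pink1-/- and 1.44 ± 0.130 in female WT libraries (SD, n = 4 each). The genotypes overlapped in both sexes, and as a score over members the ratio was given no test.

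**Figure D2:**
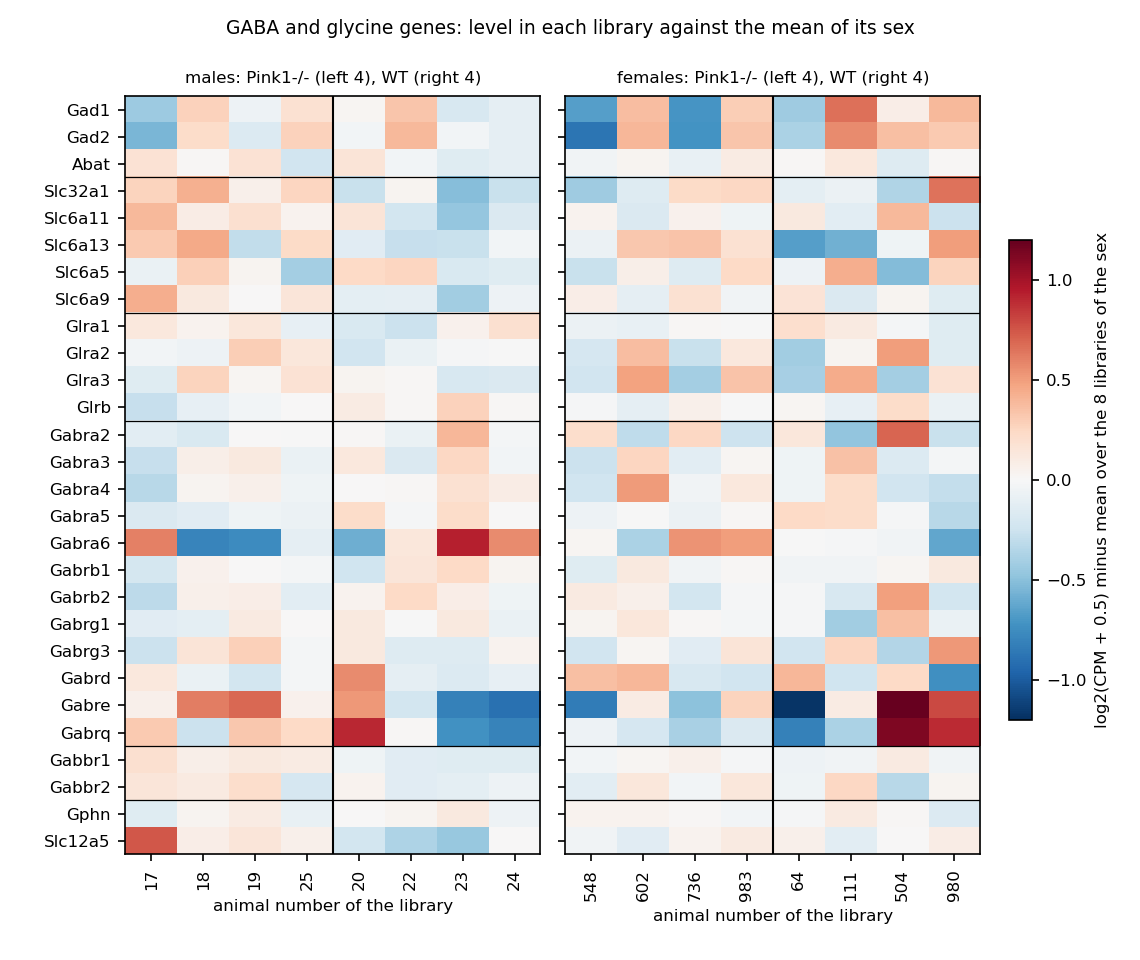
Level of each of the 28 members (rows, grouped by role with lines between roles) in each library (columns, named by animal number, Pink1-/- left of WT) as log2(CPM + 0.5) minus the mean over the 8 libraries of that sex. Slc12a5 is highest in male Pink1-/- 17, Gad1 and Gad2 are lowest in female Pink1-/- 548 and 736, and Gabre and Gabrq are highest in female WT 504.

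The male comparison asked which members differed between Pink1-/- and WT males. In edgeR's quasi-likelihood test no member reached an adjusted p (Benjamini-Hochberg) under 0.05, where 317 of 13770 genes (2.3%) did; 7 of the 26 tested members had an unadjusted p under 0.05, where 26.2% of all genes did. Of these 7, 5 were higher in Pink1-/- (14.1% of all genes) and 2 lower (12.1%). DESeq2 called 4 members, limma-voom with quality weights 1, and edgeR without a filter on low counts 2. Groups that did not overlap were found for 6 of 26 members (23.1%), against 15.2% of all genes; 4 were higher in Pink1-/- (all genes 7.15%) and 2 lower (all genes 8.04%). The median log2 fold change was 0.08 over the members and 0.01 over all genes tested. By role, 3 of 5 transport genes, 1 of 4 glycine receptor subunits, 1 of 10 tested GABA-A subunits, 1 of 2 GABA-B subunits and 1 of 2 genes of scaffold and chloride had an unadjusted p under 0.05, and 0 of 3 genes of synthesis and breakdown did.

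Slc32a1 (ENSRNOG00000015393), the vesicular carrier of both transmitters, had the smallest p of the members. It had 13.5, 15.03, 11.6 and 13.3 CPM in male Pink1-/- libraries against 9.14, 11.3, 7.64 and 9.12 CPM in male WT libraries. The lowest Pink1-/- library, 19, lay just above the highest WT library, 22. The log2 fold change was 0.52 (SE 0.13, edgeR adjusted p = 0.0610), a 1.44-fold higher level. Without Pink1-/- 17 and WT 23 it was 0.44 (edgeR adjusted p = 0.200), and with 1 surrogate variable 0.42 (edgeR adjusted p = 0.387). Summed medullary inhibitory and interneuron genes stood beside Slc32a1 at 161 to 178 CPM in male Pink1-/- and 118 to 165 CPM in male WT libraries. Of these 10 markers 1, Npy, was at 0 in each library. Pvalb (50.9 to 87.2 CPM over the 8 males) and Calb2 (32.2 to 66.0 CPM) made up most of the sum. Pax2, Lhx1, Lhx5 and Gata3 were at most 2.79 CPM each in males. Male log2 fold changes of Gad1, Gad2 and Slc6a5 were -0.02, -0.09 and -0.08. The part of these genes in the Slc32a1 difference was not tested. In tissue of this kind, more cells of a type and more RNA per cell cannot be told apart.

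Gabbr1 (ENSRNOG00000000774), the subunit of the GABA-B receptor that binds GABA, had 406, 374, 386 and 380 CPM in male Pink1-/- libraries against 343, 323, 321 and 323 CPM in male WT libraries. Every Pink1-/- library was above every WT library, and the spread within each group was small. The log2 fold change was 0.24 (SE 0.07, edgeR adjusted p = 0.0702). It was 0.19 (edgeR adjusted p = 0.318) with 1 surrogate variable and 0.20 (edgeR adjusted p = 0.190) without Pink1-/- 17 and WT 23. Its partner Gabbr2, which couples the dimer to G proteins, had 94.9 ± 11.6 CPM in male Pink1-/- and 85.9 ± 4.72 CPM in male WT libraries (SD, n = 4 each), and these overlapped.

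Slc12a5 (ENSRNOG00000018111), the neuronal chloride extruder, had 151, 95.6, 99.9 and 94.3 CPM in male Pink1-/- libraries against 77.3, 69.8, 65.8 and 90.2 CPM in male WT libraries. Pink1-/- 17 stood far above the rest of its group, and the other 3 lay above all WT libraries by a narrow margin over WT 24. The log2 fold change was 0.54 (SE 0.15, edgeR adjusted p = 0.0726). Without Pink1-/- 17 it was 0.35, without Pink1-/- 17 and WT 23 together 0.29 (edgeR adjusted p = 0.196), and with 1 surrogate variable 0.21 (edgeR adjusted p = 0.566).

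Slc6a9, the glycine transporter of glia, had 141, 113, 105 and 115 CPM in male Pink1-/- libraries against 96.3, 96.8, 77.9 and 99.8 CPM in male WT libraries. Pink1-/- 17 was the highest and WT 23 the lowest, the same libraries that stood apart in Rn7sl1, and the groups did not overlap. Its log2 fold change was 0.35 (SE 0.10, edgeR adjusted p = 0.0810), and 0.18 without those 2 libraries. Slc6a11, an astrocytic GABA transporter, had 62.7, 50.9, 54.6 and 49.4 CPM in male Pink1-/- libraries against 53.3, 41.0, 34.5 and 42.4 CPM in male WT libraries. Here WT 20 lay within the Pink1-/- range. The log2 fold change was 0.35 (SE 0.12, edgeR adjusted p = 0.117), and 0.18 without Pink1-/- 17 and WT 23. Summed astrocyte genes were 1932 to 2088 CPM in male Pink1-/- and 2063 to 2290 CPM in male WT libraries. None of 8 matched markers was at 0 in either group. S100b (864 to 1028 CPM over the 8 males) and Aqp4 (507 to 688 CPM) made up most of the sum. Slc1a3 was lower in Pink1-/- (235 to 246 CPM) than in WT males (254 to 306 CPM). Every other marker of the sum overlapped, among them Fgfr3 (31.3 to 56.0 CPM in Pink1-/- and 29.3 to 36.3 CPM in WT males). The part of astrocytes in the Slc6a9 and Slc6a11 differences was not tested.

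The 2 members that were lower without overlap were receptor subunits. Gabra5, an alpha subunit of receptors outside synapses, had 46.4, 47.8, 50.8 and 49.9 CPM in male Pink1-/- libraries against 61.1, 51.8, 61.3 and 52.6 CPM in male WT libraries. WT 20 and 23 were the high ones, and WT 22 and 24 lay close to the Pink1-/- libraries. Glrb had 228, 258, 271 and 277 CPM in male Pink1-/- libraries against 297, 279, 336 and 280 CPM in male WT libraries, with Pink1-/- 17 lowest and WT 23 highest. The log2 fold changes were -0.22 (SE 0.08, edgeR adjusted p = 0.122) for Gabra5 and -0.21 (SE 0.09, edgeR adjusted p = 0.159) for Glrb. Without Pink1-/- 17 and WT 23 that of Glrb was -0.09.

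**Figure D3:**
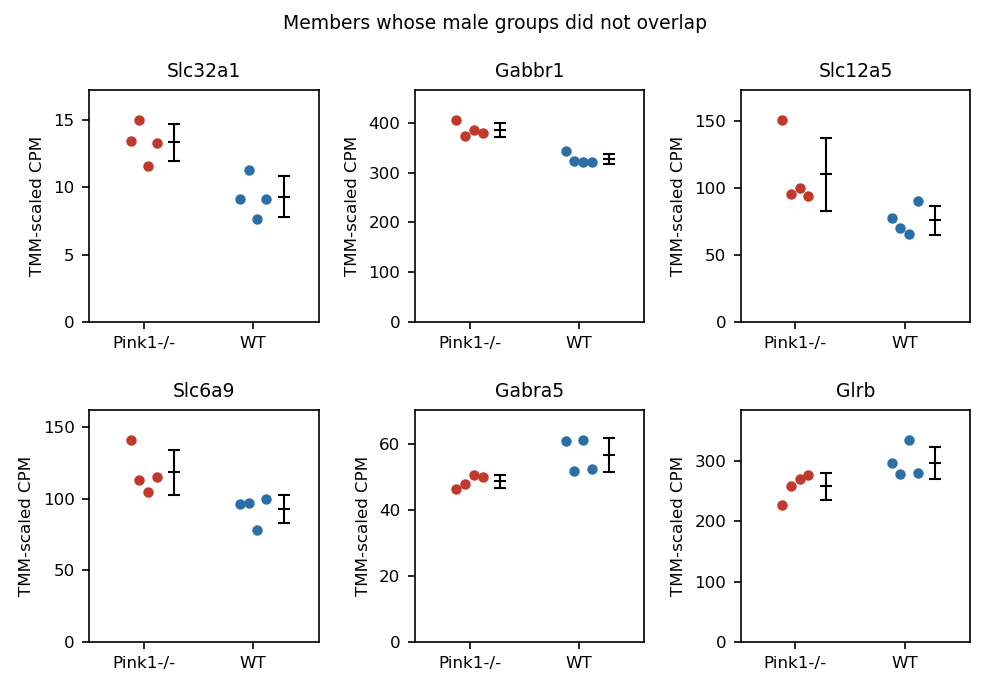
TMM-scaled CPM (y axis, starting at 0) of the 6 members whose male groups did not overlap, with Pink1-/- left of WT; points are libraries and bars are the mean and SD of 4. Slc32a1, Gabbr1, Slc12a5 and Slc6a9 lie higher in Pink1-/-, Gabra5 and Glrb lower, and Pink1-/- 17 is the outlying high point of Slc12a5 at 151 CPM.

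The authors' deposited table for males lists 27 members. It gives a false discovery rate under 0.05 for 3 of them, Slc12a5 (0.0107), Slc32a1 (0.0248) and Slc6a9 (0.0399), and for 859 of 13828 genes (6.21%). Gabbr1 has 0.147 in the authors' deposited table. The authors' deposited table for females lists 27 members, none with a false discovery rate under 0.05, and 62 of 14604 genes (0.425%) under it.

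The female comparison asked the same of Pink1-/- and WT females. None of 27 tested members was called by edgeR, where 9 of 15265 genes (0.059%) were; 0 members had an unadjusted p under 0.05, where 4.64% of all genes did, and DESeq2 and limma-voom called 0. No member had groups that did not overlap, where 3.38% of all genes did. The median log2 fold change was -0.04 over the members and 0.00 over all genes tested.

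The 3 smallest female p belonged to Gabrq, Gabre and Slc6a13. Gabrq, the theta subunit of the GABA-A receptor, had 4.89, 4.41, 3.81 and 4.49 CPM in female Pink1-/- libraries against 2.72, 3.82, 11.8 and 9.99 CPM in female WT libraries. Gabre, the epsilon subunit, had 1.30, 2.96, 1.79 and 3.37 CPM in female Pink1-/- libraries against 0.925, 2.96, 7.16 and 5.09 CPM in female WT libraries. For both genes WT 504 and WT 980 were high and WT 64 was the lowest of all 8 libraries. Gabrq had a log2 fold change of -0.70 (SE 0.39) and Gabre of -0.80 (SE 0.50), both with edgeR adjusted p = 0.993, and without WT 504 these were -0.34 and -0.37. Both subunits are known from noradrenergic and serotonergic cell groups of the brainstem. Summed genes of those neurons stood at 113 CPM in WT 504 and 33.8 CPM in WT 980. The sum was 2.96 to 3.92 CPM in WT 64 and 111 and 2.75 to 13.03 CPM in female Pink1-/- libraries. Fev was at 0 in each female Pink1-/- library. In WT 504 the sum was mostly noradrenergic, with Slc6a2 at 55.2 CPM, Dbh at 32.98 CPM and Th at 22.7 CPM. The serotonergic genes Tph2 and Slc6a4 were at 1.75 and 0.218 CPM in WT 504, against 7.22 and 3.32 CPM in WT 980. The high sum of WT 504 thus says little of serotonergic neurons. Over the 8 females Gabrq had r = 0.881 with this sum (exact permutation p = 0.0059, adjusted p = 0.0543; rho = 0.619, exact permutation p = 0.115, adjusted p = 0.345), and r = 0.354 without WT 504 and 980, on which the relation rests. Gabre had r = 0.637 (exact permutation p = 0.0892, adjusted p = 0.238; rho = 0.452, exact permutation p = 0.267, adjusted p = 0.524), and r = -0.256 without them. Over the 8 males Gabrq had r = 0.855 with the same sum (exact permutation p = 0.0074, adjusted p = 0.0591), and r = 0.524 without WT 23 and 24. Its male rho was 0.667 (exact permutation p = 0.0831, adjusted p = 0.275). Male Gabre had r = 0.654 (exact permutation p = 0.0781, adjusted p = 0.214), and r = -0.507 without WT 23 and 24.

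Slc6a13, a GABA transporter of the meninges and vessels, had 3.85, 5.23, 5.31 and 4.72 CPM in female Pink1-/- libraries against 2.39, 2.58, 3.93 and 5.999 CPM in female WT libraries. WT 980 was the highest, so the groups overlapped, and the log2 fold change was 0.34 (SE 0.28, edgeR adjusted p = 0.993). In males it had 2.86, 3.19, 1.70 and 2.67 CPM in Pink1-/- libraries against 1.95, 1.73, 1.74 and 2.13 CPM in WT libraries. Male Pink1-/- 19 was the lowest of these 8. Summed genes of meninges and fibroblasts were 20.5 to 25.0 CPM in male Pink1-/- and 32.8 to 38.3 CPM in male WT libraries, without overlap, and 28.4 to 49.6 CPM in female Pink1-/- and 19.7 to 35.95 CPM in female WT libraries. None of the 7 matched symbols was at 0 throughout a group. In males the higher of the Ogn identifiers had 3.43 to 4.44 CPM in Pink1-/- and 10.4 to 17.7 CPM in WT libraries. Every other identifier of the sum overlapped between the male groups, among them Dcn and Igf2. The male gap in the sum thus rested largely on Ogn. Over the 8 males Slc6a13 had r = -0.795 with this sum (exact permutation p = 0.0318, adjusted p = 0.144; rho = -0.714, exact permutation p = 0.0576, adjusted p = 0.213), with r = -0.696 without libraries 17 and 22 and -0.804 with the genotype means removed. Over the 8 females r was 0.457 (exact permutation p = 0.259, adjusted p = 0.455; rho = 0.429, exact permutation p = 0.299, adjusted p = 0.552), and 0.615 without libraries 504 and 602.

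The members that were higher without overlap in Pink1-/- males had level ranges in females that overlapped. Slc32a1 had 35.5, 42.9, 56.4 and 56.9 CPM in female Pink1-/- libraries against 44.0, 45.7, 37.2 and 75.5 CPM in female WT libraries. Gabbr1 had 561, 582, 596 and 567 CPM in female Pink1-/- libraries against 551, 556, 617 and 556 CPM in female WT libraries. Slc12a5 had 284, 266, 302 and 314 CPM in female Pink1-/- libraries against 305, 267, 293 and 310 CPM in female WT libraries. Within each of these genes the genotype means lay closer together than the libraries of a group. Slc6a9 had 200, 176, 215 and 183 CPM in female Pink1-/- libraries against 212, 168, 193 and 170 CPM in female WT libraries, again with overlap.

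**Figure D4:**
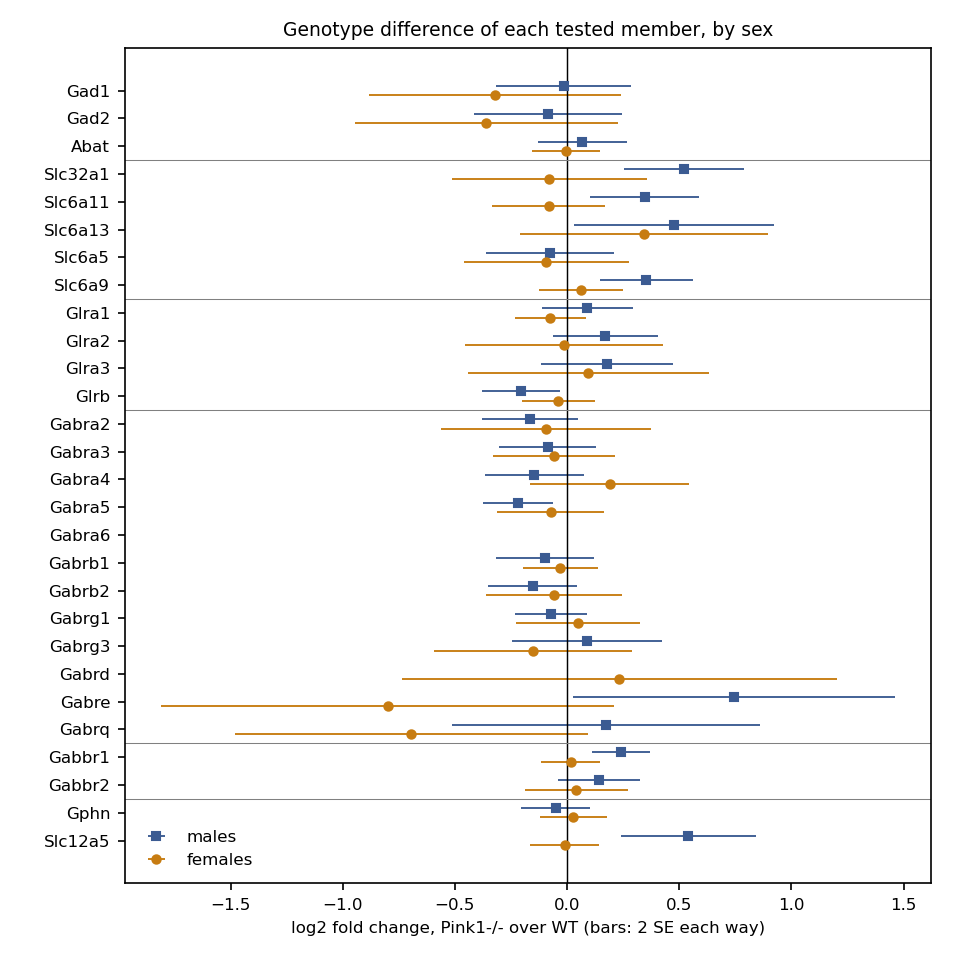
Log2 fold change of Pink1-/- over WT for each tested member (rows, by role), males as blue squares and females as orange circles, with bars of 2 SE each way; Gabra6 has no value and Gabrd none in males. Slc32a1, Slc6a9, Gabbr1 and Slc12a5 lie above 0 in males, while the female values of these genes lie close to 0, and no member passed the adjusted threshold in either sex.

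Whether the genotype difference itself differed between the sexes was tested as an interaction over all 16 libraries. Such an interaction could not be told apart from an effect of library processing. No member was called by edgeR, where 12 of 15042 genes (0.0798%) were; 4 of 27 members had an unadjusted p under 0.05, where 14% of all genes did, and DESeq2 and limma-voom called 0 members. All 4 had a lower fold change in females than in males, as did 8.23% of all genes at that p: Slc12a5 (difference of log2 fold changes -0.55, SE 0.18, edgeR adjusted p = 0.230), Gabbr1 (-0.22, SE 0.08, edgeR adjusted p = 0.267), Slc6a11 (-0.42, SE 0.19, edgeR adjusted p = 0.333) and Gabre (-1.54, SE 0.70, edgeR adjusted p = 0.338). A difference between the sexes was therefore not shown for any member. Male Gabre had 2.38 to 3.97 CPM in Pink1-/- and 0.988 to 3.47 CPM in WT libraries, which overlapped. These levels rested on 13 to 48 counts a library.

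With the sexes in 1 fit and the level of each sex taken out, no member was called by edgeR, where 101 of 14695 genes (0.687%) were. An unadjusted p under 0.05 was found for 4 of 26 members, where 15.5% of all genes had one, and DESeq2 and limma-voom called 0 members. All 4 were higher in Pink1-/-, where 6.96% of all genes were: Slc6a9 at 0.20 (SE 0.08, edgeR adjusted p = 0.265), Gabbr1 at 0.12 (SE 0.05, edgeR adjusted p = 0.268), Slc12a5 at 0.25 (SE 0.11, edgeR adjusted p = 0.290) and Slc6a13 at 0.39 (SE 0.18, edgeR adjusted p = 0.315). The same fit gave Gad1 -0.18 (SE 0.18), Gad2 -0.23 (SE 0.19) and Slc6a5 -0.09 (SE 0.13), with edgeR adjusted p = 0.624, 0.541 and 0.740. The median log2 fold change was -0.02 over the members and 0.00 over all genes tested.

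Other genes of the pathway were read from the same fits, as 45 symbols of metabolism, receptor traffic, chloride regulation and GABA-B partners, of which 40 were matched. In males 0 of 38 tested genes were called by edgeR, where 2.3% of all genes were, and 18 had an unadjusted p under 0.05, where 26.2% of all genes had. In females 0 of 40 were called (all genes 0.059%) and 2 had an unadjusted p under 0.05 (all genes 4.64%). With the sexes in 1 fit 1 of 40 was called (all genes 0.687%) and 10 had an unadjusted p under 0.05 (all genes 15.5%). It was Slc38a2 (ENSRNOG00000006305), which carries glutamine and other neutral amino acids into cells, glutamine being a source of the glutamate from which GABA is made. Slc38a2 had 299, 287, 246 and 311 CPM in male Pink1-/- libraries against 339, 363, 370 and 365 CPM in male WT libraries. In females it had 329, 269, 275 and 294 CPM in Pink1-/- libraries against 383, 381, 336 and 324 CPM in WT libraries. All male Pink1-/- libraries were below all male WT libraries, and in females only Pink1-/- 548 reached into the WT range, above WT 980. Slc38a2 fell by 0.31 on the log2 scale (SE 0.06, edgeR adjusted p = 0.0172) over both sexes. Within a sex the log2 fold changes were -0.33 (SE 0.08, edgeR adjusted p = 0.0554) in males and -0.29 (SE 0.09, edgeR adjusted p = 0.743) in females. The call of the fit over both sexes was lost with library totals as the scaling (edgeR adjusted p = 0.163), with 1 surrogate variable (0.0821) and without male Pink1-/- 17 and WT 23 together (0.0556), while the log2 fold change lay between -0.35 and -0.27 in every setting.

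In females, the levels of several members were related to those of genes of hindbrain position. Summed Hox genes were 1.64, 13.5, 4.84 and 23.6 CPM in Pink1-/- libraries 548, 602, 736 and 983 against 8.65, 37.3, 1.44 and 22.6 CPM in WT libraries 64, 111, 504 and 980, so both genotypes spanned the range. Relations between log2 levels over the 8 libraries of a sex were computed for 96 pairs of a member and a marker sum, a family chosen after the levels were seen; exact permutation gave 26 an unadjusted p under 0.05 for Pearson r and 4 an adjusted one, and for Spearman rho 22 and 10. Of those 10, 3 had also passed for r. Slc6a5 rose with the Hox sum in females (Pearson r = 0.975, exact permutation p = 5.0e-05, adjusted p = 0.0048; Spearman rho = 0.976, exact permutation p = 0.00040, adjusted p = 0.0183). The value of r was 0.988 without libraries 504 and 548 and 0.976 with the genotype means removed.

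Gabbr2 also rose with the Hox sum in females (r = 0.910, exact permutation p = 0.00074, adjusted p = 0.0179; rho = 0.952, exact permutation p = 0.0011, adjusted p = 0.0183), with r = 0.832 without libraries 504 and 548. Gabra2, an alpha subunit of GABA-A receptors, fell as the Hox sum rose (r = -0.920, exact permutation p = 0.00050, adjusted p = 0.0159; rho = -0.881, exact permutation p = 0.0072, adjusted p = 0.0579), with r = -0.933 without those libraries. It had 49.1, 34.2, 50.3 and 35.7 CPM in female Pink1-/- libraries against 46.6, 30.3, 68.9 and 35.1 CPM in female WT libraries, so the libraries poor in Hox transcripts were the high ones in both genotypes. Gad1 did not pass (r = 0.718, exact permutation p = 0.0526, adjusted p = 0.172; rho = 0.762, exact permutation p = 0.0368, adjusted p = 0.176), and its r was 0.943 without libraries 504 and 548. WT 504 is the library that parts Gad1 from Slc6a5, with the lowest Slc6a5 of the females and a middle level of Gad1. Relations to the Hox sum were not computed in males, where it was 0.433 to 2.99 CPM.

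**Figure D5:**
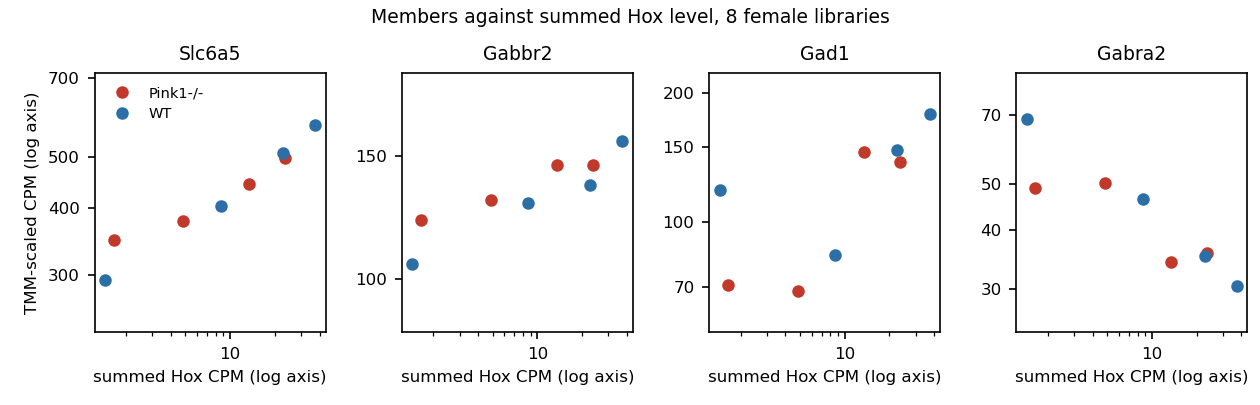
TMM-scaled CPM (y axis, log) of Slc6a5, Gabbr2, Gad1 and Gabra2 against the summed CPM of Hox genes (x axis, log) in the 8 female libraries, Pink1-/- in red and WT in blue. Slc6a5 and Gabbr2 climb with the Hox sum (r = 0.975 and 0.910), Gabra2 declines (r = -0.920), and Gad1 has WT 504 (119 CPM, leftmost point) away from the other low libraries.

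Cholinergic motor neuron genes, 8 matched of 8, summed to 232, 94.0, 352 and 133 CPM in female Pink1-/- libraries against 340, 41.0, 525 and 217 CPM in female WT libraries. The 4 libraries lowest in Hox transcripts were the 4 highest in these, so the marker sums were not independent of each other. Glra3, a glycine receptor alpha subunit, fell as the cholinergic sum rose in females (r = -0.892, exact permutation p = 0.00030, adjusted p = 0.0143; rho = -0.952, exact permutation p = 0.0011, adjusted p = 0.0183), with r = -0.891 without libraries 111 and 602. Slc6a5 had r = -0.815 with that sum in females (exact permutation p = 0.0132, adjusted p = 0.0908; rho = -0.833, exact permutation p = 0.0154, adjusted p = 0.0984). In males, where the sum was 82.4 to 251 CPM in Pink1-/- and 96.0 to 384 CPM in WT libraries, Slc6a5 had r = -0.871 (exact permutation p = 0.0062, adjusted p = 0.0543; rho = -0.929, exact permutation p = 0.0022, adjusted p = 0.0306), and r = -0.924 without libraries 18 and 23. With the genotype means removed, its r was -0.934 in males and -0.829 in females.

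Beside that of Slc6a5 in males, the relations that passed for rho only were in females. Abat, the enzyme that breaks down GABA, rose with the Hox sum (rho = 0.952, exact permutation p = 0.0011, adjusted p = 0.0183; r = 0.885, exact permutation p = 0.0041, adjusted p = 0.0543) and fell as the cholinergic sum rose (rho = -0.952, exact permutation p = 0.0011, adjusted p = 0.0183; r = -0.860, exact permutation p = 0.0058, adjusted p = 0.0543). Gabra2 rose with the cholinergic sum (rho = 0.952, exact permutation p = 0.0011, adjusted p = 0.0183; r = 0.879, exact permutation p = 0.0054, adjusted p = 0.0543), and so did Glrb (rho = 0.905, exact permutation p = 0.0046, adjusted p = 0.0438; r = 0.790, exact permutation p = 0.0208, adjusted p = 0.111). Gabra3 and Gabrg3, an alpha and a gamma subunit of GABA-A receptors, rose with the Hox sum, both with rho = 0.905 (exact permutation p = 0.0046, adjusted p = 0.0438), with r = 0.802 (adjusted p = 0.1004) for Gabra3 and r = 0.849 (adjusted p = 0.0637) for Gabrg3. Without the 2 libraries farthest from the median of the marker sum, r was 0.907 and -0.882 for Abat, 0.879 for Gabra2, 0.772 for Glrb, 0.665 for Gabra3 and 0.784 for Gabrg3.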

How the data were processed

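Estimated counts per gene were made by the authors with RSEM, per the submitters' processing notes, and deposited as a table for each sex. The values were already whole and were used as deposited. Per the labels' protocols, total RNA was made into libraries with an Illumina TruSeq kit. The sources used here do not name the aligner, build, annotation or strand. Per the file headers, the authors' comparison tables give the p-value, false discovery rate, log2 fold change, mean log2 CPM and likelihood ratio score of each gene, and edgeR 3.9 is named in the processing notes. All per-sample columns were used (0 left over), and columns were matched to samples by the animal numbers in the titles. That replicates are separate animals rests on those numbers.

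Genes were filtered with filterByExpr (minimum count 10, minimum total 15), scaled by TMM and tested with the quasi-likelihood test of edgeR 4.0.16 in R 4.3.3, by sex, over both sexes with sex as a covariate, and as an interaction. P-values were adjusted by Benjamini-Hochberg over all genes tested, never over the members alone. The SE of a log2 fold change is its size divided by the root of its F statistic. Alternatives were RLE factors, library totals, other filters, DESeq2 1.42.0, 1 surrogate variable (sva 3.50.0), limma-voom 3.58.1 with quality weights, an adjusted p of 0.10 and left-out libraries. Leaving out the 7 loci above 1% of counts was added after seeing the data. Correlations used log2(CPM + 0.5) and all 40320 orders of 8 libraries, 2-sided. The fits were also run on counts simulated from a single mean per gene with known fold changes. Those counts held no differences in tissue composition between libraries, so they do not show how such differences affect the fits. The members and gene lists were chosen with earlier results of these data known. Named in full are the members with an unadjusted p under 0.05, the 3 smallest p of each fit and the markers of GABA and glycine neurons, with called genes of the pathway. A further part of that rule, the member with the highest level per length in each role, was not applied, as transcript lengths were not at hand.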

Additional observations from a re-analysis of the deposited data

Results flagged for a closer look

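Within a group of 4 libraries, a library was picked out when its gap to the nearest other exceeded, as a share of the range of the group, Dixon's critical value for 4 samples. This was met by 9 of 112 combinations of a member and a group, and chance gives about 1 in 20. Slc12a5 had 151 CPM in male Pink1-/- 17, against 94.3 to 99.9 CPM in the other Pink1-/- males. Gabrq had 4.44 CPM in male Pink1-/- 18, against 6.49 to 6.90 CPM in the others. In male WT 23, Slc6a9 had 77.9 CPM (others 96.3 to 99.8 CPM) and Gabra2 50.1 CPM (others 35.7 to 38.1 CPM). In male WT 20, Gabbr1 had 343 CPM (others 321 to 323 CPM) and Gabrd 1.02 CPM (others 0.415 to 0.456 CPM). Gad2 had 195 CPM in male WT 22 (others 138 to 145 CPM). Gabbr1 had 617 CPM in female WT 504 (others 551 to 556 CPM). Gabra6 had 0.0395 CPM in female WT 980 (others 0.306 to 0.326 CPM), a level of few counts.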

How the results depend on the processing

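No paired analysis was possible because the animal numbers in the labels are not shared between the groups. The order of members by level per length, and its alternatives, were not run because transcript lengths were not at hand. Males had 317 genes called, against 1219 at an adjusted p of 0.10, 168 with library totals, 523 without a filter, 853 with DESeq2, 88 with 1 surrogate variable, 153 without Pink1-/- 17 and WT 23, and 98 to 217 with a library left out. Called male members were 0, against 4 at 0.10, 2 without a filter, 4 with DESeq2 and 1 with limma-voom. Females had 9 genes called, against 58 with DESeq2, 24 with limma-voom, 16 with the surrogate variable and 7 to 16 with a library left out. Both sexes had 101, against 197 at 0.10, 252 with DESeq2, 230 with limma-voom, 37 with the surrogate variable, 51 without Pink1-/- 17 and WT 23, and 57 to 284 with a library left out (284 without female WT 980). The interaction had 12, against 29 at 0.10, 3 with library totals, 19 without a filter, 21 at a mean of 1 CPM, 122 with DESeq2, 27 with limma-voom, 4 with the surrogate variable, 7 without Pink1-/- 17 and WT 23, 19 without the loci above 1% of counts, and 3 to 13 with a library left out. The causes were not tested. In males the log2 fold change of Gad1 turned to 0.0462 with limma-voom, 0.0846 with the surrogate variable and 0.0432 without Pink1-/- 17 and WT 23, and ran between -0.117 and 0.111 with a library left out. That of Gad2 turned to 0.0861 with the surrogate variable and 0.0225 without Pink1-/- 17 and WT 23, and ran between -0.197 and 0.0559. In females Gad1 ran between -0.518 and -0.147 and Gad2 between -0.580 and -0.171. With a library left out, Slc6a5 ran between -0.196 and 0.0328 in males and between -0.247 and 0.0470 in females. With the surrogate variable the male log2 fold changes of Slc6a9, Slc6a11 and Glrb were 0.13, 0.12 and -0.06. Female Slc6a13 ran between 0.18 and 0.67 over all settings, and the interaction of Slc12a5 between -0.65 and -0.24. In the settings other than a single library left out, 16 of 26 male members, 20 of 27 female members and 14 of 26 over both sexes kept their sign. With a single library left out 21, 9 and 20 did. In the female, both-sexes and interaction fits 0 members were called in any setting. Counting error limits Gabra6, Gabrd, Gabre and Slc6a13 most.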
